A study of Mus musculus with 2 samples.

Results

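The 40 genes described here are 19 genes of DNA replication and 21 genes of mitosis, taken as a fixed list of symbols from the 19430 genes in the count tables of 2 single-cell libraries of mouse colon. All 40 were in the table of the wild-type colon library and 39 in that of the reporter library, where Bub1 had no entry. The replication genes were Mcm2, Mcm3, Mcm4, Mcm5, Mcm6, Mcm7, Pcna, Rrm1, Rrm2, Gins2, Tk1, Dut, Tyms, Pclaf, Cdc6, Cdca7, Uhrf1, Slbp and Fen1. The mitotic genes were Mki67, Top2a, Birc5, Cdk1, Ube2c, Cenpa, Cenpf, Cdc20, Ccna2, Ccnb1, Ccnb2, Pbk, Nusap1, Plk1, Hmmr, Hmgb2, Tpx2, Aurka, Aurkb, Bub1 and Kif11.

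Dividing cells copy their DNA in S phase and part the copies in mitosis, and each step has its own set of genes. Replication genes are switched on around the entry into S phase, largely through E2F factors, and encode the helicase that opens the DNA, the enzymes that make nucleotides and the clamp that holds the polymerase. Mitotic genes are switched on later, in G2, through promoter elements named CHR and CCAAT, and encode cyclins, spindle motors, kinetochore proteins and the ubiquitin machinery that ends mitosis. In the colon, division is concentrated in the lower crypt, where progenitors renew the epithelium, while most stromal cells are thought to divide rarely in the adult.

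The wild-type library was made from C57BL/6 mouse colon, with sorted EpCAM+ CD45- epithelial and EpCAM- CD45- non-epithelial cells mixed 1:1. The reporter library held GFP+ mesenchymal cells of Pdgfra-H2B-eGFP mice, whose nuclear GFP is driven from the Pdgfra locus, and the sort was on GFP and viability without CD45 or EpCAM staining. It still held 113 immune-like cells and an epithelial cluster of 33 cells, which were kept out of the fibroblast values. Each library pooled 3 female mice aged 8 to 12 weeks, and no cell can be assigned to a mouse, so each library is 1 sample and no test between groups was made. There were 7495 wild-type cells (median 2804 genes detected) and 4409 reporter cells (median 1381), and 1 cell barcode was shared. The levels given are the authors' depth-corrected counts per cell, shares carry exact binomial 95% intervals that cover counting error only, and fewer dividing cells and less RNA in each cannot be told apart in a mean level.

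The promoters of the members are shown first, as the E2F and CHR letters near the transcription start were found at different shares in the 2 sets. Windows reaching from 250 bases before to 50 bases after the start were found for 34 of the 40 members in RefSeq (GRCm38.p6), 17 of each set. Those of Mcm4, Gins2, Ccna2, Pbk, Tpx2 and Aurkb were not analysed here. E2F sites were searched on both strands as TTTGGCGC, TTTCCCGC, TTTCGCGC or TTTGCCGC, CHR elements as TTTGAA or TTCGAA, and CCAAT boxes as CCAAT. E2F letters were in 7 of 17 replication windows, those of Mcm3, Mcm5, Mcm6, Mcm7, Pclaf, Cdc6 and Cdca7, in 1 of 17 mitotic windows, that of Cdk1, and in 2.32% of all 27025 promoter windows. CHR letters were in 3 of 17 replication and 14 of 17 mitotic windows, against 19.4% of all. CCAAT alone was less uneven, in 11 of 17 replication and 15 of 17 mitotic windows against 37.9% of all. A CHR and a CCAAT match stood together in 2 of 17 replication and 14 of 17 mitotic windows, against 7.70% of all. The mitotic windows without CHR letters were those of Birc5, Ccnb1 and Nusap1. A match is a run of letters and not a measured binding site. The 160 bases up to the start of 3 replication and 4 mitotic members are printed below, 5′ to 3′ on the gene's own strand, as the windows in which the differing letters can be read. Capitals mark E2F letters in Mcm6 (chr1:128359706-128359865, minus strand), which encodes a helicase subunit, in Cdc6 (chr11:98907991-98908150, plus strand), which loads that helicase, and in Cdca7 (chr2:72476059-72476218, plus strand), a partner of the chromatin remodeller Hells. Capitals mark CHR letters or CCAAT on either strand in Top2a (chr11:99024190-99024349, minus strand), the topoisomerase that untangles sister chromosomes, in Cdk1 (chr10:69352913-69353072, minus strand), the kinase that starts mitosis, in Cdc20 (chr4:118437344-118437503, minus strand), which activates the anaphase-promoting complex, and in Kif11 (chr19:37376222-37376381, plus strand), a spindle motor.
Mcm6: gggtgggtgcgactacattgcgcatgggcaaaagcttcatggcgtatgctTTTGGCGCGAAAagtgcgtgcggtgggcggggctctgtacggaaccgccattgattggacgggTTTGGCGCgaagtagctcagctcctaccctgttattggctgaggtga
Cdc6: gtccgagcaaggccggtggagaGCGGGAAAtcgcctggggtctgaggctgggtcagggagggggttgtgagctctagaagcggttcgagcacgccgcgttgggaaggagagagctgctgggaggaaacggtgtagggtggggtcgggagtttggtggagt
Cdca7: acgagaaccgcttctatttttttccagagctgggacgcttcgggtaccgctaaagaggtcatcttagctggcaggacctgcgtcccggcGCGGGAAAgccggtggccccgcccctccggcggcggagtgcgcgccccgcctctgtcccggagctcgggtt
Top2a: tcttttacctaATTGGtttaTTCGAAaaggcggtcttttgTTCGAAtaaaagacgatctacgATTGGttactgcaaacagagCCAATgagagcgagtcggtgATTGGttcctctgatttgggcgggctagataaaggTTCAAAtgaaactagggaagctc
Cdk1: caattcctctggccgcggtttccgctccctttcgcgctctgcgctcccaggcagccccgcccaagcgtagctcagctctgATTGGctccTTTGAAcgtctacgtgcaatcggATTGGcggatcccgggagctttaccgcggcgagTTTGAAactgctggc
Cdc20: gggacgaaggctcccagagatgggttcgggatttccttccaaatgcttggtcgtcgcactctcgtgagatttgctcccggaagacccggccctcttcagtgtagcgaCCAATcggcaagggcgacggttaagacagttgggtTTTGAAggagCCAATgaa
Kif11: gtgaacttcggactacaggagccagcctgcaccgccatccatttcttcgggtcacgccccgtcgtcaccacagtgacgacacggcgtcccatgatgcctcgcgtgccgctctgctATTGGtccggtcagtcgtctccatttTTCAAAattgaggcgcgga

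**Figure D1:**
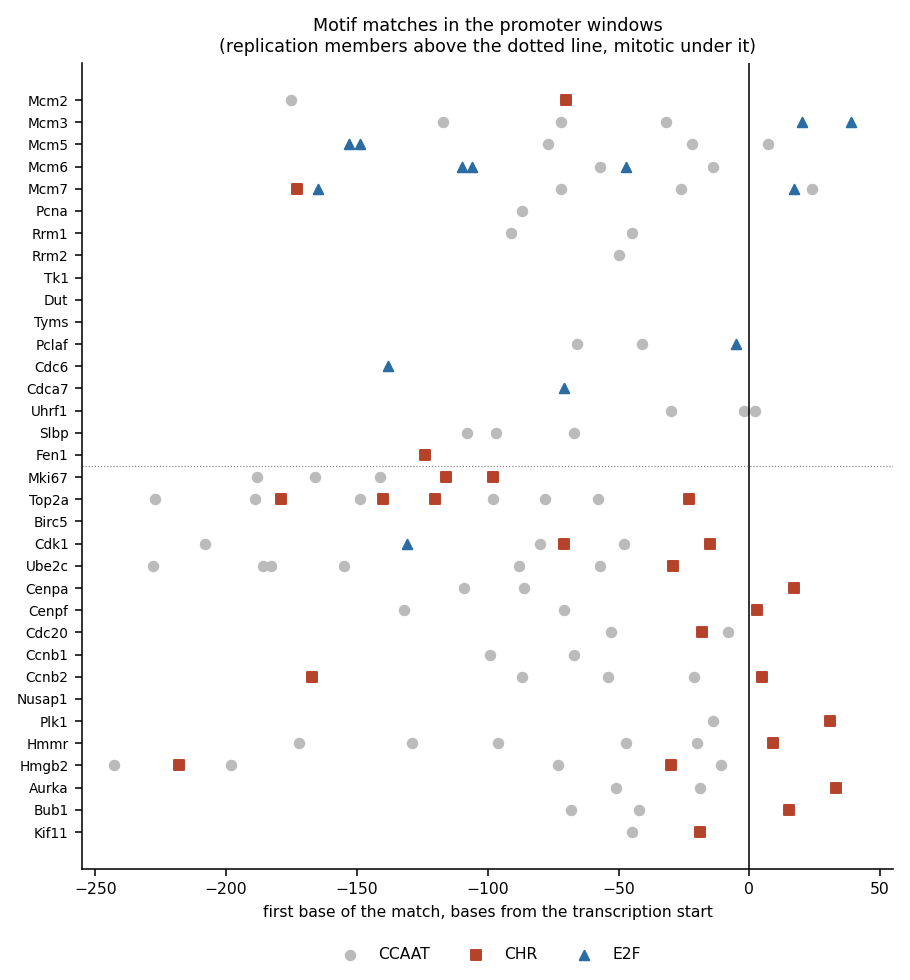
Position of the first base of each motif match in the promoter windows, in bases from the transcription start, for the 34 members with a window. Triangles (E2F) lie almost all above the dotted line, in 7 replication windows, and squares (CHR) mostly under it, in 14 mitotic windows.

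In the wild-type colon the members were concentrated in the crypt progenitor-like cells, a cluster of 785 cells named from its epithelial crypt markers. It was built without the members and a fixed set of other cell cycle genes. Their mean summed replication count was 15.7 per cell and their mean summed mitotic count 31.9. Goblet-like cells, which make mucus, came next by mitotic sum among epithelial classes with 4.20 and 8.67 (682 cells), followed by an epithelial cluster led by Krt36 with 4.29 and 5.92 (398 cells). The goblet-like class was not split from the Reg4+ deep crypt secretory cells that the study sets apart. In it 8 of 8 Reg4 secretory markers were enriched. Enteroendocrine-like cells, which secrete hormones, had 2.98 and 5.12 (89 cells). Colonocyte-like cells, the absorptive cells of the crypt top, were lowest with 1.38 and 1.67 (525 cells). In the progenitor-like and goblet-like cells the mitotic sum was 2.03 and 2.06 times the replication sum.

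Stromal classes, here fibroblasts, smooth muscle-like, pericyte-like, glia-like and interstitial cells, had mitotic sums under that of the goblet-like cells, and except for the glia-like cells their mitotic sum was the lower of the pair. Several stood above the colonocyte-like cells. Crypt-bottom fibroblasts of the first kind (CBFs1-like, 1139 cells) had a replication sum of 2.25 and a mitotic sum of 1.59. The second kind (CBFs2-like, 505 cells) had 2.87 and 1.47, and crypt-top fibroblasts (CTFs-like, 820 cells) had 2.31 and 2.12. Smooth muscle-like cells (946 cells) had 1.93 and 1.59, of which all but 0.305 of the mitotic sum was Hmgb2, a chromatin protein also made outside division. Glia-like cells (78 cells) had 2.18 and 2.42, with 0.308 left of the mitotic sum without Hmgb2. Pericyte-like cells (118 cells) had 4.37 and 3.66, a replication sum above the 4.20 of goblet-like cells. Their mitotic sum without Hmgb2 was 1.45, against 0.821 in colonocyte-like cells. Over the 3626 stromal cells the mitotic sum was 0.76 times the replication sum, and 0.25 times without Hmgb2.

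**Figure D2:**
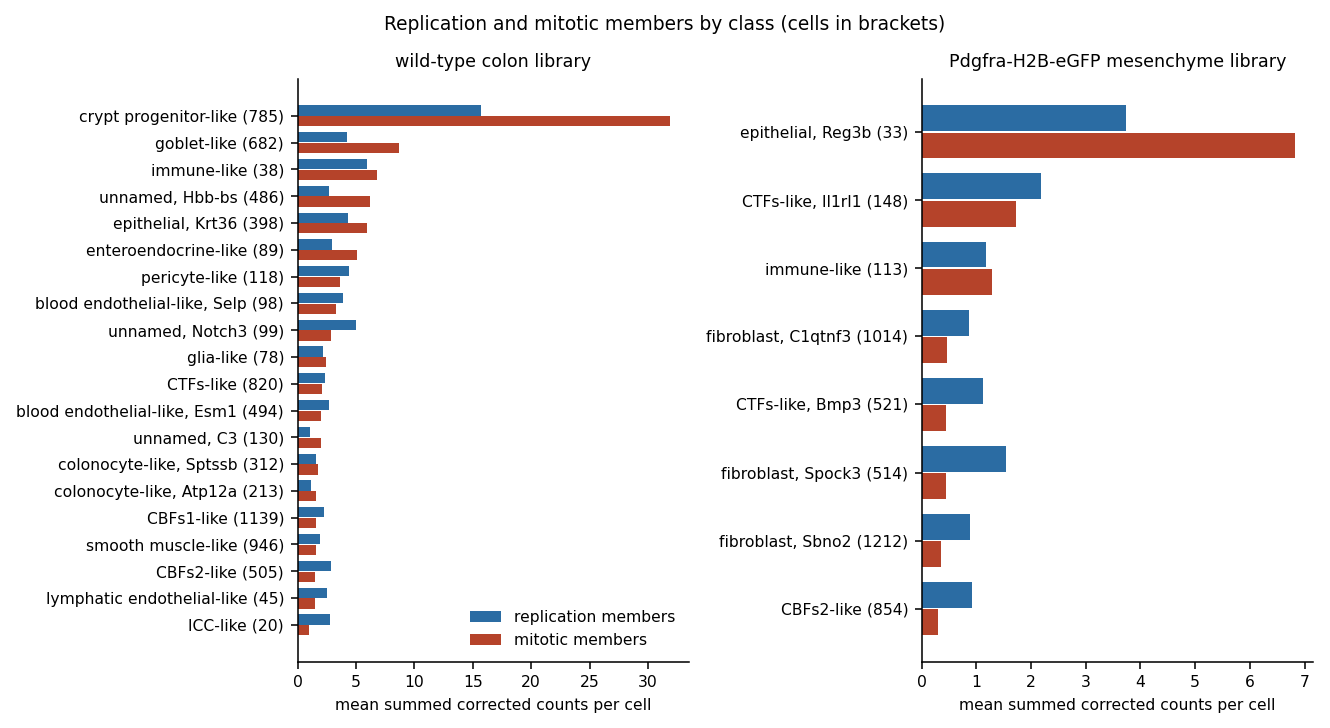
Mean summed corrected counts per cell of the replication members (blue) and mitotic members (red) in each class or cluster of both libraries, with the number of cells in brackets and a horizontal axis of its own for each library. The crypt progenitor-like bars reach 15.7 and 31.9, and in fibroblast classes the blue bar is the longer.

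Each of the 21 mitotic members and 17 of the 19 replication members had its highest mean in the progenitor-like cells. The exceptions were Pcna, the sliding clamp of the polymerases, and Slbp, which binds histone mRNA. Pcna had a mean of 1.22 in an unnamed cluster led by Notch3 (99 cells), 1.12 in pericyte-like cells and 1.05 in a blood endothelial-like cluster led by Selp, against 0.713 in the progenitor-like cells. It was above 0 in 51.7% (42.3 to 61.0) of the 118 pericyte-like cells and in 41.3% (37.8 to 44.8) of the progenitor-like cells. Slbp had a mean of 1.47 in both the Notch3 cluster and the pericyte-like cells, against 1.04 in the progenitor-like cells. Both genes were thus high in classes where the marker of cycling cells Mki67 was low. Mki67 was above 0 in 2.54% (0.527 to 7.25) of pericyte-like and 38.7% (35.3 to 42.2) of progenitor-like cells. The Notch3 cluster stayed unnamed since marker lists of different cell types each had 90% or more of their markers enriched in it. It had 10 of 10 blood endothelial markers enriched, and the pericyte markers Notch3 and Ndufa4l2 were among its leading genes. Its median was 3851 genes per cell, against 2102 in pericyte-like and 3359 in progenitor-like cells. The part of mixed droplets in its values was not tested.

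Cenpa, the centromere histone, was the mitotic member that stood out in the same classes. It was above 0 in 24.6% (17.1 to 33.4) of pericyte-like cells and in 45.5% (35.4 to 55.8) of the Notch3 cluster, against 29.8% (26.6 to 33.1) of progenitor-like cells and 5.32% (4.46 to 6.28) of fibroblasts. Its mean was lower in both classes, at 0.576 and 0.626 against 1.33 in the progenitor-like cells. Top2a was above 0 in 5.93% (2.42 to 11.8) of pericyte-like and 30.7% (27.5 to 34.1) of progenitor-like cells.

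**Figure D3:**
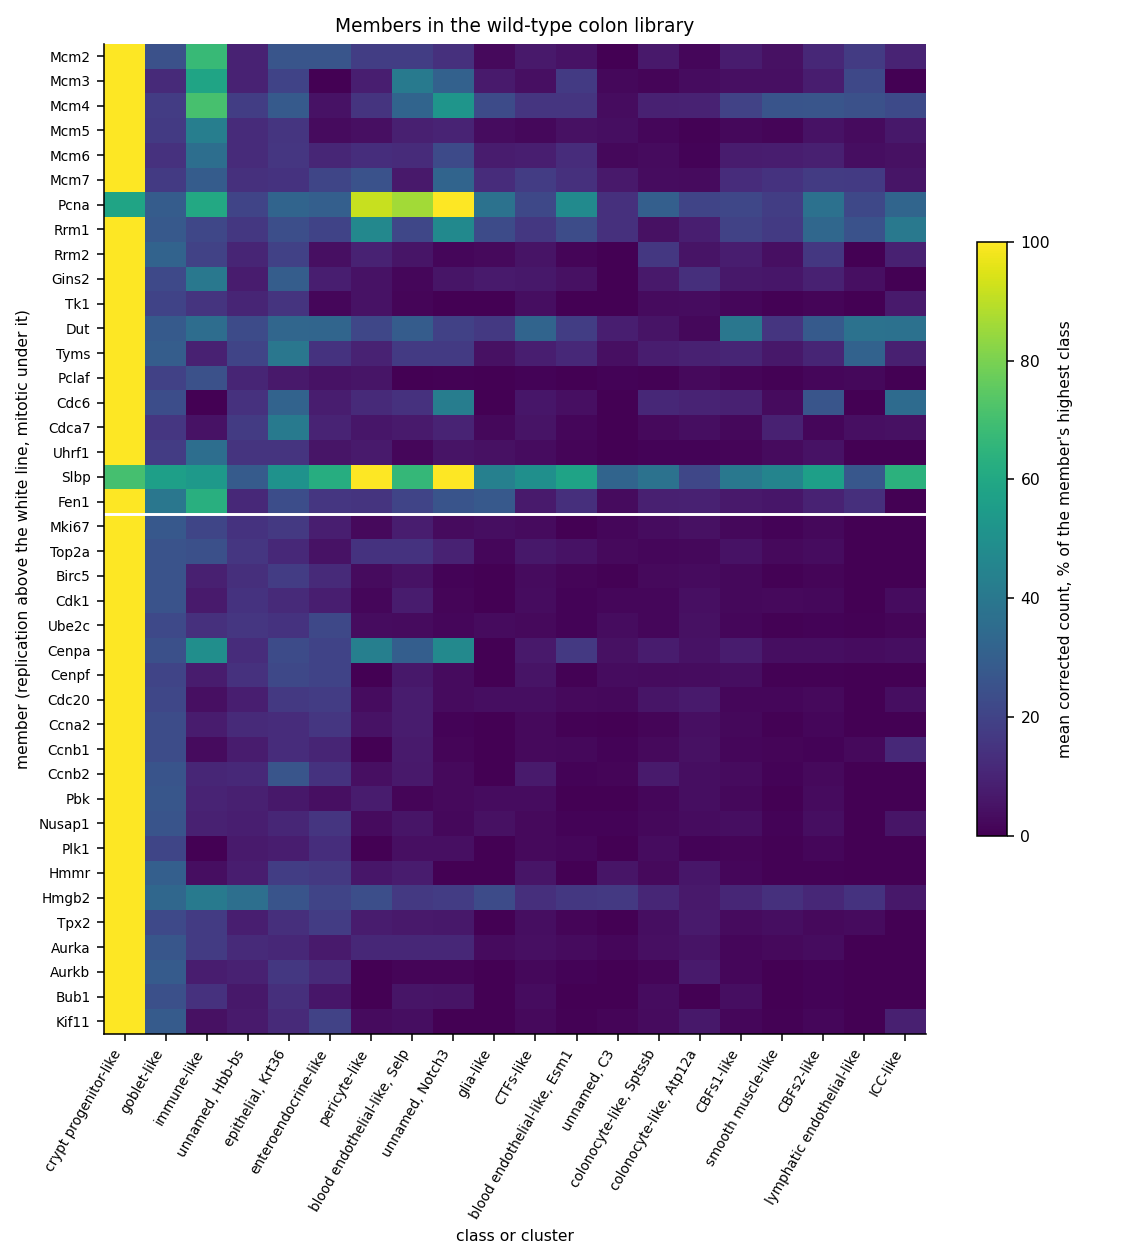
Mean corrected count of each member (vertical axis) in each class of the wild-type library (horizontal axis), as a percent of that member's highest class, with replication members above the white line. All but Pcna and Slbp are at their highest in the crypt progenitor-like column, and Cenpa is the mitotic member with bright cells in the pericyte-like and Notch3 columns.

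Against the other epithelial classes, the progenitor-like cells held 38 of 40 members at 2-fold or more, and no member was 2-fold lower. Of all 14084 genes compared, 9.37% were 2-fold higher and 11.2% were 2-fold lower. All 21 mitotic members passed, with log2 ratios from 2.08 to 2.90 and a median of 2.64, and 17 of 19 replication members passed, with a median of 2.28 over the 19, against a median of 0.06 over all genes. Among replication members the ratio was highest for Pclaf, a partner of Pcna, at 3.25, and for the helicase subunits Mcm3, Mcm6 and Mcm5 at 3.13, 3.13 and 3.06. Pcna had a log2 ratio of 0.99 (0.713 against 0.355) and Slbp of 0.56 (1.04 against 0.701). The summed ratios were 2.26 for replication and 2.49 for mitosis on the log2 scale. With the cells holding 5 or more mitotic members left out of both sides, they were 1.94 and 1.28. This step picks cells by the mitotic members themselves, so a fall of the mitotic ratio is built into it.

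By role, the values of the replication members were as follows, each a mean corrected count in progenitor-like, other epithelial and stromal cells. The helicase subunit Mcm2 had 0.508, 0.0968 and 0.0375, Mcm5 had 0.8, 0.0874 and 0.0201, and Mcm7 had 0.907, 0.112 and 0.140. Mcm4, another subunit, had 0.446, 0.0756 and 0.0946, so that Mcm4 and Mcm7 were lower in the other epithelial classes than in stroma. Gins2, a part of the active helicase, had 0.527, 0.101 and 0.0350. Fen1, which trims Okazaki fragments, had 0.502, 0.126 and 0.0392.

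The nucleotide enzymes were less alike across the classes. Rrm1 and Rrm2 are the subunits of ribonucleotide reductase. Rrm1 had means of 0.618, 0.122 and 0.131 in the same order, and Rrm2 had 0.538, 0.114 and 0.0394. Tyms, thymidylate synthase, had 1.14, 0.280 and 0.0996, and Tk1, thymidine kinase, 0.694, 0.0880 and 0.0135. Dut, which breaks down dUTP, had 1.48, 0.327 and 0.428, and with Rrm1 it was the nucleotide gene that was no lower in stroma than in the other epithelial classes. Cdc6 was rare throughout, with 0.143, 0.0295 and 0.0132, and Uhrf1, which helps to copy DNA methylation, had 0.580, 0.0655 and 0.0171.

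The mitotic members were uniform by comparison, each highest in progenitor-like and lowest in stromal cells. Ube2c had means of 3.23, 0.465 and 0.0527, and Birc5, of the chromosomal passenger complex, 2.05, 0.329 and 0.0345. Its partner kinase Aurkb had 0.657, 0.112 and 0.0080. Among cyclins, Ccna2 had 1.06, 0.147 and 0.0193, Ccnb1 had 0.854, 0.119 and 0.0141, and Ccnb2 had 1.22, 0.233 and 0.0408. These cyclins activate Cdk1, which had 1.44, 0.207 and 0.0350. The spindle genes Nusap1, Tpx2, Hmmr and Kif11 had 0.876, 0.763, 0.679 and 0.575 in progenitor-like cells and 0.0237, 0.0251, 0.0154 and 0.00938 in stromal cells. The mitotic kinases Plk1, Aurka and Bub1 had 0.508, 0.456 and 0.186 in progenitor-like cells and 0.00689, 0.0143 and 0.00386 in stromal cells. Hmgb2 was the member furthest from 0 in stroma, with 9.19, 2.16 and 1.18.

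Other cell cycle genes, kept in lists by role, are read against the same 9.37% higher and 11.2% lower over all genes. Of the genes that license and fire origins, 14 of 18 were 2-fold higher, with Ticrr at 2.62, Topbp1 at 2.04 and Cdt1 at 2.00 on the log2 scale. Of the polymerases and fork proteins, 18 of 20 were, led by Pole (2.65), the catalytic subunit of the leading-strand polymerase, and Lig1 (2.62), which joins Okazaki fragments. Chromatin assembly genes passed in 15 of 16 cases, with Hells at 3.03 and the condensin subunit Ncaph at 2.72. Spindle and kinetochore genes passed in 31 of 33 cases, with the kinesins Kif15 at 2.85 and Kif2c at 2.76, and cytokinesis and mitotic regulators in 16 of 16, with Aspm at 2.55. Of the cyclins, kinases and inhibitors of G1, 6 of 17 were 2-fold higher, with Cdk6 at 1.97, Cdk4 at 1.93 and Ccnd1 at 1.82. The 2 of 17 lower, a share near that over all genes, were the cyclin-dependent kinase inhibitors Cdkn2b at −1.97 and Cdkn1a at −1.49, which were named after their values were seen. Of the E2F, Myb and Fox factors 8 of 17 were higher, among them Foxm1 (2.23), Mybl2 (2.22) and E2f1 (2.11), each a regulator of cell cycle promoters. No gene of the lists other than that of G1 was 2-fold lower.

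In single cells the 2 sets overlapped only in part. A cell was counted as past the mitotic limit with 5 or more of the 21 mitotic members above 0, and past the replication limit with 8 or more of the 19 replication members above 0. Of the 785 progenitor-like cells, 293 or 37.3% (33.9 to 40.8) passed the mitotic limit and 332 or 42.3% (38.8 to 45.8) the replication limit, with 181 past both, 151 past the replication limit alone and 112 past the mitotic limit alone. In these cells 58 had exactly 4 mitotic members and 22 exactly 5. The 293 cells held 92.5% of the class's mitotic sum and 63.1% of its replication sum, and the remaining progenitor-like cells had a mitotic sum of 3.82 and a replication sum of 9.26. A high share of the mitotic sum is built into the choice of these cells. In the other epithelial classes 132 of 1694 cells, or 7.79%, passed the mitotic limit. With every cell thinned to 2000 counts these mitotic shares were 24.2% and 3.90%, while the replication share of the progenitor-like cells was 6.88%, so the counts past both limits or past 1 alone hold at full depth only.

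**Figure D4:**
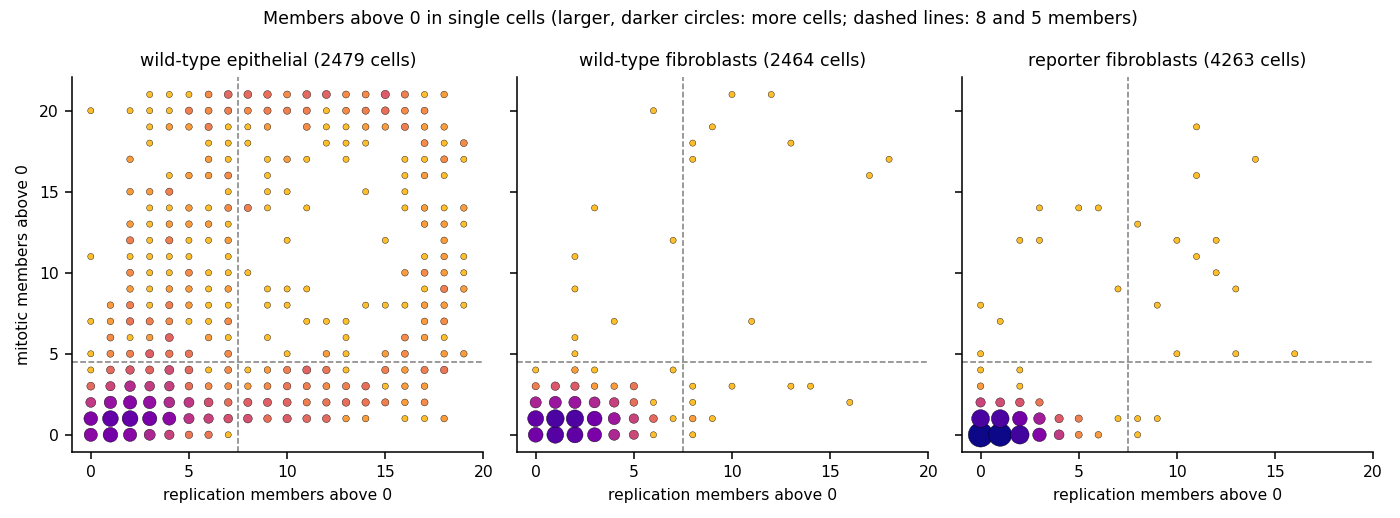
Number of replication members (horizontal) and mitotic members (vertical) above 0 in single cells of 3 groups, with larger and darker circles for more cells and dashed lines at the limits of 8 and 5 members. Epithelial cells lie along both axes and far from them, while 17 wild-type and 22 reporter fibroblasts lie above the horizontal line.

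Over all 2479 epithelial cells these limits gave 4 ranges, and the members differed in which range they filled. There were 1880 cells in neither, 174 past the replication limit alone, 223 past both and 202 past the mitotic limit alone, with median genes per cell of 3146.5, 3369.5, 3548 and 3399. Since the ranges were cut on the members, their values describe the ranges and support nothing further. The helicase subunits Mcm6 and Mcm3 were as high in replication-only cells as in cells past both limits: Mcm6 had means of 2.60 and 2.05, and Mcm3 of 1.49 and 1.47. The nucleotide enzymes Rrm2 and Tk1 instead had 0.201 and 0.345 in replication-only cells and 1.98 and 2.35 in cells past both limits. Pclaf followed the same order, with 0.603 and then 7.63. In mitotic-only cells Mcm6 was at 0.188, Rrm2 at 0.114 and Pclaf at 0.812.

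The mitotic members split in a like way. Pbk and Top2a were mostly in cells past both limits, with Pbk at 2.91 against 0.554 in mitotic-only cells and Top2a at 5.72 against 1.32. Cenpa, the cyclin Ccnb2 and Cdc20 were as high or higher in mitotic-only cells, with Cenpa at 3.71 against 2.86, Ccnb2 at 3.33 against 2.74 and Cdc20 at 3.18 against 2.97. In replication-only cells these 3 genes had means of 0.0345, 0.0287 and 0.0862. Mki67 was at 5.35 in cells past both limits, 2.74 in mitotic-only cells and 0.0977 in replication-only cells, where the last value lay near the 0.0574 of cells past neither limit.

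Genes outside the list fell along the same ranges, in the order neither, replication only, both and mitotic only. Lig1 had means of 0.0824, 1.31, 1.93 and 0.213, and E2f1, the S-phase factor, 0.0223, 0.339, 0.480 and 0.0347. Foxm1, the factor of G2 promoters, had 0.00479, 0.00575, 0.417 and 0.198, and Kif2c, a kinesin that takes microtubules apart, 0.0016, 0.00575, 0.744 and 0.431. Ccnd1, the G1 cyclin, was highest in replication-only cells, with 0.607, 2.25, 1.40 and 0.936. Cdkn1a, which halts the cycle, was highest outside the limits, with 3.95, 1.33, 1.92 and 1.78. The ranges pool all epithelial classes, and their class mix was not held equal. Within the progenitor-like class, cells past the mitotic limit and the rest had Cdkn1a means of 1.45 and 1.56. Their Ccnd1 means were 1.45 and 1.72.

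Some cells past the mitotic limit lay in the goblet-like cluster. They were 77 of 682 cells, or 11.3% (9.01 to 13.9), with 29 past both limits and 48 past the mitotic limit alone, and they held 81.1% of the class's mitotic sum. That share is raised by choosing the cells on mitotic members. Muc2, the gel-forming mucin, was above 0 in 96.1% of the 77 and 97.9% of the other 605, with means of 108.45 and 222.43. Clca1, a secreted goblet protein, had means of 5.21 and 23.1, and Atoh1, the factor that sets the secretory fate, 2.84 and 2.49. Reg4, the marker of deep crypt secretory cells, was above 0 in 49.4% and 55.4%, so the class holds more than goblet cells. Lgr5, the crypt base stem cell receptor, was above 0 in 10.4% of the 77 cells and 1.65% of the others. The whole list of 10 crypt progenitor markers, Lgr5 among them, went the other way, with mean sums of 7.57 and 8.71. Scrublet, a doublet caller, marked 7 cells of the whole library and so did not work here, and the part of mixed droplets in these values was not tested.

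Among the progenitor-like cells, those with Lgr5 above 0 differed from the rest in replication members more than in mitotic ones. Of 194 cells with Lgr5, 56.2% (48.9 to 63.3) passed the replication limit, against 37.7% (33.8 to 41.8) of 591 cells at 0. The mitotic limit was passed by 39.7% (32.8 to 46.9) and 36.5% (32.7 to 40.6), and the median genes per cell were 3443 and 3332. These shares are at full depth, and no thinned value is given for the split. Thinned to 2000 counts, 6.88% of the whole class passed the replication limit. A cell with Lgr5 at 0 may be one in which it was not detected.

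Between epithelium and stroma the mitotic members were the more unequal set. Of the 40 members 36 were 2-fold higher in epithelial cells and none 2-fold lower, where 32.2% of 15630 genes were higher and 17.2% lower. All 21 mitotic members passed, with a median log2 ratio of 3.65, and 15 of 19 replication members, with a median of 2.36. All genes had a median of 0.44. In the lists by role, 31 of 33 spindle and kinetochore genes and 14 of 16 cytokinesis genes were 2-fold higher in epithelium, against 10 of 18 origin genes and 14 of 20 polymerase and fork genes. The 4 that did not pass were Mcm4 (0.96), Dut (0.68), Pcna (0.57) and Slbp (0.18). The summed ratios were 1.62 for replication and 2.97 for mitosis, and 0.85 and 0.57 without the cells past the mitotic limit. With the progenitor-like cells left out, 30 of 40 members were 2-fold higher in the other epithelial classes than in stroma, where 30.7% of genes were higher and 18% lower. The summed ratios were then 0.49 and 1.67, and 0.10 and 0.14 without the cells past the mitotic limit. Those cells were picked by mitotic members, so lower mitotic ratios without them are built in.

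In stromal cells the mitotic limit was passed by 18 of 3626 cells, or 0.496% (0.294 to 0.783), against 425 of 2479 epithelial cells, or 17.1% (15.7 to 18.7). No smooth muscle-like cell of 946 passed, which allows a share of up to 0.317%. Epithelial markers were also counted in stroma, with a summed mean of 4.83 per cell against 185.73 in epithelial cells. The mitotic sum without Hmgb2 was 0.591 in stroma against 9.60 in epithelial cells, and the replication sum 2.34 against 7.22. The part of free RNA in the stromal levels was not tested.

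Fibroblasts past the mitotic limit were few in both libraries. The wild-type library had 17 of 2464, or 0.690% (0.402 to 1.10), namely 9 of 1139 CBFs1-like, 3 of 505 CBFs2-like and 5 of 820 CTFs-like cells. Beyond the limit they held 5 to 21 mitotic members with a median of 16, while 919 fibroblasts had no mitotic member above 0, 1225 had 1, 260 had 2, 38 had 3 and 5 had 4. Among the 17 cells, 7 had epithelial marker sums of 20 to 77, above the 95th percentile of 13 in the other fibroblasts. Without fibroblasts above that percentile, 10 of 2352, or 0.425% (0.204 to 0.781), passed the limit, and these 10 had epithelial sums from 0 to 3. By class they were 4 of 1110 CBFs1-like, 2 of 486 CBFs2-like and 4 of 756 CTFs-like cells. Median genes per cell were 3666 in the 17 and 2638 in the rest. The fibroblast marker sums had medians of 174 and 235. The 7 cells high in epithelial markers were also the only ones of the 17 above 10% mitochondrial, at 10.1 to 20.7%.

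In the reporter library 22 of 4263 fibroblasts, or 0.516% (0.324 to 0.780), passed the mitotic limit and 16 the replication limit, with 13 past both. With cell cycle genes kept in the clustering, the share of cells in fibroblast clusters was 0.0707% for both limits. They held 5 to 19 mitotic members with a median of 11.5, and 3191 of the fibroblasts had none, 994 had 1, 51 had 2, 3 had 3 and 2 had 4. Their epithelial and immune marker sums were 0 or 1, and their fibroblast marker sums ran from 30 to 94 with a median of 53, against a median of 63 in the rest. Median genes per cell were 1975 and 1381. Thinned to 2000 counts, the shares were 0.406% for wild-type fibroblasts and 0.446% for those of the reporter.

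The 22 reporter cells kept fibroblast genes. Col1a1, a fibrillar collagen chain, had a mean of 6.68 in them and 5.35 in the rest, Dcn, a matrix proteoglycan, 13.2 and 19.96, and Pdgfra 0.50 and 0.45. Acta2, smooth muscle actin, had 2.18 and 0.919, and Cdkn1a was above 0 in 77.3% and 38.6%. Since these cells were picked for mitotic members, genes that go with them had to lead among genes outside the list, and 7 of the 10 with the highest ratios were in the fixed cycle lists. The other 3 were the histone genes Hist1h2ap and Hist1h2ae, and Pimreg. Stmn1, a tubulin-binding protein, had means of 8.32 and 0.0432 and was above 0 in 21 of the 22 cells, and Hist1h2ap had 3.59 and 0.00377, with 10 of 22 cells above 0. Log2 ratios were 6.84 for Cdca3 and 6.59 for the kinetochore gene Spc25.

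By cluster, the reporter fibroblasts past the limit were spread as follows. A CTFs-like cluster led by Il1rl1 had 6 of 148 cells, or 4.05% (1.502 to 8.61), against 16 of 4115, or 0.389% (0.222 to 0.631) in all other fibroblasts. The cluster was named from 7 of 10 CTFs markers, Pdgfra was at 0 in 5 of its 6 cells past the limit, and Il1rl1 was above 0 in 4.55% of the 22 cells of the library past it. With 1 pooled library and 6 cells this is a description and no test was made. The other CTFs-like cluster, led by Bmp3, had 3 of 521 cells and the CBFs2-like cluster 2 of 854. Fibroblast clusters led by C1qtnf3 and Sbno2 had 7 of 1014 and 4 of 1212, and a cluster led by Spock3 had 0 of 514, which allows a share of up to 0.584%. Ube2c, the ubiquitin-conjugating enzyme of mitotic exit, was above 0 in 4.73% (1.92 to 9.502) of the Il1rl1 cluster and 0.516% (0.324 to 0.780) of all fibroblasts. The Il1rl1 cluster had a median of 1845.5 genes per cell and the Bmp3 cluster 1444, and with every cell thinned to 2000 counts they still had 6 and 3 cells past the limit.

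Between crypt-top and crypt-bottom fibroblasts the members differed little in the wild-type library. Of 39 members compared, 3 were 2-fold higher in CTFs-like than in CBFs-like cells, Hmmr (1.31), Ccnb2 (1.09) and Cdca7 (1.05), and none was 2-fold lower, where 5.01% of genes were higher and 8.4% lower. The medians were −0.26 for replication and 0.41 for mitosis, and the 3 became 6 without cells above 10% mitochondrial and 0 with cells thinned to 2000 counts. In the reporter library 11 of 34 members were 2-fold higher in CTFs-like cells than in other fibroblasts and none lower, where 5.03% of genes were higher and 4.49% lower. The 4 replication members were Pclaf (1.60), Rrm2 (1.36), Cdca7 (1.29) and Tk1 (1.20), and the 7 mitotic members were led by Ube2c (1.55), Cenpf (1.48) and Cdk1 (1.39). The summed ratios were 0.46 and 0.91, and 0.23 and 0.32 without the cells past the mitotic limit. Here too a fall of the mitotic ratio is built into the choice of cells. The CTFs-like cells pooled the clusters led by Bmp3 (521 cells) and Il1rl1 (148 cells), which were unlike. Mitotic sums were 0.443 and 1.72 in these clusters, against 0.382 in the other fibroblasts. Replication sums were 1.11 and 2.18, against 0.977. With cell cycle genes kept in the clustering, the mitotic sum ratio was 0.079 and 2 members passed, and with a pseudocount of 0.1 none passed in either library.

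A last measure was how far the counts of each member lay in few cells. For each gene the cells with 5 or more other mitotic members were taken, about 6.74% of the wild-type library, and the share of the gene's counts in them was computed. The median share was 89.1% for mitotic and 37.9% for replication members, and a higher share for the mitotic set is built into the choice of cells, so members are compared within a set. Bub1, a spindle checkpoint kinase, had 96.7% of its counts there and Hmgb2 47.1%, the lowest of the mitotic set. Among replication members Pclaf (89.7%) and Tk1 (81.4%) had the highest shares, and Slbp (11.1%) and Mcm4 (22.1%) were among the lowest. Slbp was above 0 in 42.9% and Hmgb2 in 65.6% of the other cells. In reporter fibroblasts, where such cells were 0.516%, the median shares were 67.1% and 9.09%. Pclaf (76.4%) and Tk1 (67.4%) were again high there. Of 20 mitotic members 11 had over 50% of their counts in these cells, and among the others were Ccnb2 (27.4%), Cdc20 (24.6%) and Hmgb2 (10.0%). Some of these shares rest on few corrected counts in the reporter fibroblasts, 6 for Hmmr, 7 for Plk1, 9 for Kif11 and 10 for Aurkb.

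**Figure D5:**
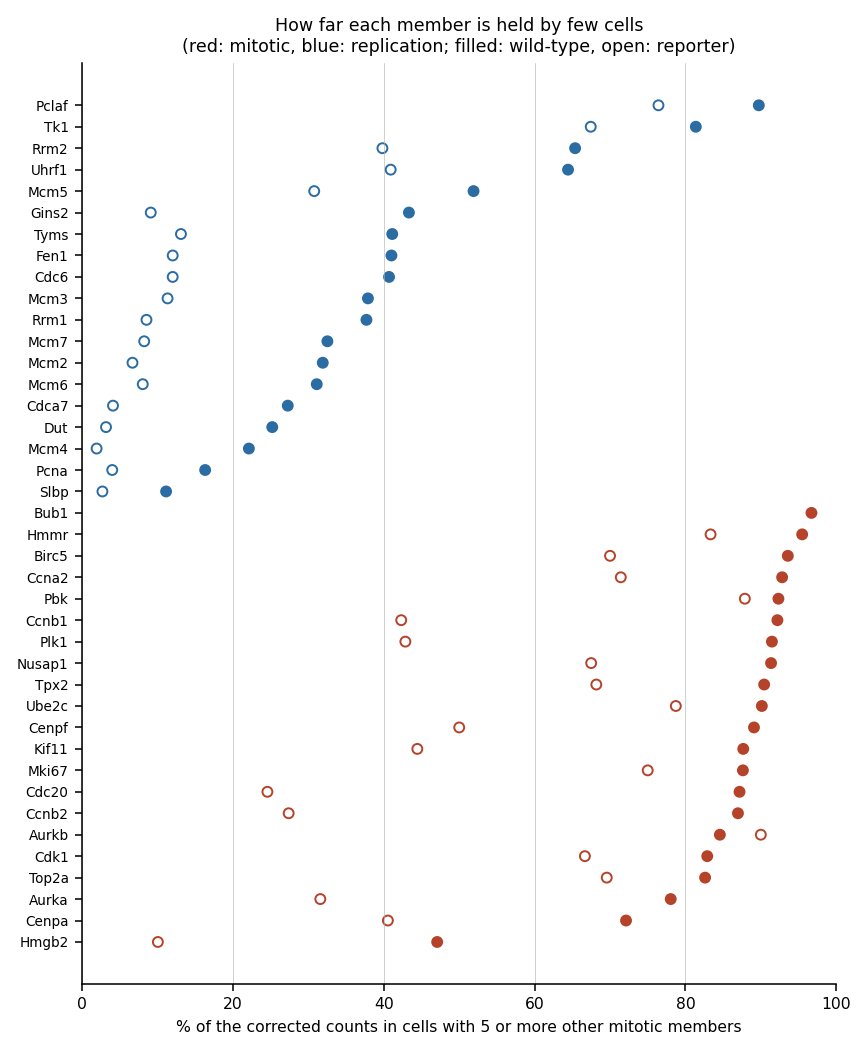
Percent of each member's corrected counts (horizontal axis) that lay in cells with 5 or more other mitotic members, in the wild-type library (filled) and the reporter fibroblasts (open), mitotic members in red and replication members in blue. Filled red points lie above 70 except Hmgb2 at 47.1, and the blue points run from Slbp at 11.1 to Pclaf at 89.7.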

How the data were processed

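Cells of 2 libraries (10x Single Cell 3′, V3 for the wild-type colon and V2 for the reporter) were analysed from the deposited tables. Per the study's methods and the submitters' processing notes, the authors aligned to mm10 with Cell Ranger and normalised with SCTransform in Seurat 3.1 under R 3.6.2, after filters on genes per cell and mitochondrial share. The deposited tables named as raw hold whole numbers that the authors' model had corrected to a common depth, treated here as a score and not as counts, and the second deposited table is exactly the natural log of 1 plus the first. No count model was therefore used, and with 1 pooled sample per group there was no test. Corrected totals per cell ran from 6120 to 16389 (wild-type) and 2314 to 4432 (reporter), so low values are limited by depth.

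Cells were clustered with Seurat 5.3.0 (R 4.3.3) from 3000 variable features without the members, the listed cell cycle genes and histone genes (2885 and 2919 used), 30 components and resolutions of 0.45 and 0.3. Cell cycle genes outside the lists were not removed. A cluster was named where 60% or more, and 4 or more, of a class's markers were 2-fold enriched in it, and reporter clusters with a general fibroblast marker mean of 1 or more were called fibroblasts. A cluster stayed unnamed where lists of different cell types, the general epithelial and fibroblast lists aside, each reached 90%. This naming rule was written after the clusters were seen, and names may differ from the study's. Ratios are log2 of mean corrected counts with a pseudocount of 0.01, for genes with 20 or more corrected counts in the compared cells, and 2-fold was the call. They understate the change of low genes. Genes were named from the fixed member list, from the highest ratios of each cycle list, or as stated. Intervals are Clopper-Pearson (scipy 1.17.1), and the limit for a count of 0 is 3 over the number of cells. Doublets were left in, since Scrublet (scanpy 1.11.5) marked 7 and 5 cells. The ratio script was tested on simulated data. The members, lists and limits were chosen with earlier results of these data known. Alternatives were other clustering settings, thinning, a mitochondrial limit, pseudocount, filter and other limits on members.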

Additional observations from a re-analysis of the deposited data

How the results depend on the processing

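Of 247 alternative values computed, 204 kept within 1.5 times or the counting interval of the main value, 43 moved and none that was 2-fold or more changed sign. The small wild-type CTFs-like over CBFs-like replication ratio (−0.08) was 0.0065 without cells above 10% mitochondrial. With cell cycle genes kept in the clustering, the log2 ratio of the mitotic sum, progenitor-like over all other cells (3.33), was 4.18. Over other epithelial cells it was 4.11 and the replication ratio 2.90. The reporter CTFs-like mitotic ratio was 0.079, with 2 members 2-fold higher. Shares past the mitotic and replication limits were then 48.7% and 51.3% in progenitor-like cells, 4.48% and 1.98% in other epithelial cells and 0.0707% for both limits in reporter fibroblasts. Without cells above 10% mitochondrial, 6 members were higher in wild-type CTFs-like cells, and the shares were 47.8% and 50.4% in progenitor-like and 10.5% and 5.11% in other epithelial cells. Thinned to 2000, 0 members were higher and 1 lower in wild-type CTFs-like cells, and the shares were 24.2% and 6.88% in progenitor-like and 3.90% and 0.767% in other epithelial cells. Replication shares were 0.0406% in wild-type and 0.164% in reporter fibroblasts. A pseudocount of 0.1 left 0 members in both CTFs-like comparisons. At 3 or more mitotic members the shares were 53.1%, 14.7% and 2.44% in progenitor-like, other epithelial and wild-type fibroblast cells, and at 8 or more 30.1% and 5.49% in the first 2. At 6 or more replication members they were 53.6%, 6.26% and 1.30%, and at 10 or more 34.8%, 2.54% and 0.406%. Alternatives chosen after seeing the data were leaving out cells with 5 or more mitotic members, Hmgb2, or fibroblasts high in epithelial markers. The first gave mitotic ratios of 1.22 (progenitor-like over all others), 1.28 (over other epithelial) and 0.57 (epithelial over stromal), and 0.85 for the last in replication. Lower mitotic ratios are built into it, as it drops cells by their mitotic members. Without Hmgb2 the epithelial over stromal mitotic ratio was 3.999 and the reporter CTFs-like one 1.56. The causes were not tested. Leaving out marked doublets says nothing here, since so few were marked. No paired analysis was possible because each group is 1 pooled library and no test was made. Depth limits the reporter library most.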

Other observations

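Members were also found in cells that the comparisons did not use. An unnamed wild-type cluster of 486 cells led by Hbb-bs, a globin gene, had a replication sum of 2.66 and a mitotic sum of 6.16, and 55 of its cells, or 11.3%, held 5 or more mitotic members. Its median was 1741 genes per cell, and 35 of the 55 cells were above 10% mitochondrial. Its epithelial markers stood at 57.9% of the level in epithelial cells, and Epcam was above 0 in 100% of its cells. Fibroblast genes were counted in most of its cells as well. Dcn was above 0 in 89.1% of the 55 cells and 88.2% of the cluster's others, against 3.90% and 6.12% in the goblet-like class. The part of mixed droplets and free RNA in this cluster was not tested. In the wild-type library, sorted as CD45-, immune-like cells had sums of 5.92 and 6.79, with 2 of 38 cells past the mitotic limit. In the reporter library, sorted without CD45, 3 of 113 immune-like cells passed. A small epithelial cluster of the reporter library led by Reg3b had 6 of 33 cells past it.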
